A study of Arabidopsis thaliana with 12 samples.

Results

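The genes described here are those whose transcripts were much higher after 1 h of benzyladenine in Arabidopsis thaliana roots of both genotypes studied. A gene was taken when the mean of log2(RPKM + 0.5) was at least 1.5 higher with benzyladenine than with vehicle in the wild type and also in the mutant, when its 3 benzyladenine values lay above its 3 vehicle values in each genotype, and when its mean with benzyladenine was at least 2 RPKM in both. RPKM values are read numbers corrected for gene length and sequencing depth. Of 33602 genes, 137 met these criteria. The 21 of them that belong to the best-known cytokinin-induced families were left out, namely 9 type-A response regulators, 7 CC-type glutaredoxins, 3 cytokinin oxidases, 1 CYP735A hydroxylase and 1 Aux/IAA gene, and 116 members remained. The members were thus selected on their measured responses to benzyladenine, and these responses are given as a description with no test.

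Roots came from 10-day-old seedlings of the accession Col-0 (WT) or of the bpc1,2,3,4,6 mutant (bpc), which carries loss-of-function mutations in 5 of the BASIC PENTACYSTEINE genes. Each sample was a pool of the roots of 12 seedlings that had been shaken whole in liquid MS medium for 1 h, either in the presence of the synthetic cytokinin benzyladenine (BA) at 5 µM or of a NaOH solution as vehicle. There were 3 libraries in each of the 4 groups. No alleles are named in the labels. Whether the 3 libraries of a group stem from separate plantings is not stated either, so every p-value reflects spread among these libraries that could be technical.

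Cytokinins are perceived by membrane-bound histidine kinase receptors, and the signal passes as a phosphate through histidine phosphotransfer proteins to nuclear type-B response regulators, which bind short DNA sites and activate transcription. Type-A response regulators and cytokinin oxidases are the classical direct targets and dampen the signal. In roots, cytokinin limits meristem size, promotes differentiation and interacts with auxin, ethylene, abscisic acid and gibberellin. BASIC PENTACYSTEINE proteins are plant transcription factors that bind GA-repeat DNA.

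The libraries held 9427912 to 13951019 reads, worked out from the smallest steps between RPKM values, so a single read on a 1 kb gene was worth 0.0717 to 0.106 RPKM and values under about 1 RPKM rest on few reads. In bpc, BPC1, BPC2 and BPC6 stood at 0.935 to 2.20, 1.28 to 1.93 and 0.718 to 2.81 RPKM, against 10.6 to 20.1, 15.1 to 19.1 and 24.1 to 37.9 RPKM in WT. BPC4 was at 14.5 to 17.8 RPKM in bpc and 20.0 to 26.2 in WT. BPC3 was not lower in bpc (2.57 to 4.14 RPKM, against 1.21 to 2.51 in WT), and a transcript level cannot check a mutation that leaves the transcript in place. WT BA library 1 stood apart. It had the same RPKM divisor as WT vehicle library 2 (11653485 reads), and its length-weighted RPKM sum was 86.5% of the median library, against 99.8% to 100.2% in the others. Without it the rule found 123 members, and with it rescaled 124, each including all 116. All 10 root markers were measured and none was at 0 in any library. Their summed level ran from 449 to 489 RPKM in WT with vehicle and from 421 to 428 in bpc, and with BA from 336 to 427 and from 354 to 367. The 336 is that of WT BA library 1. CASP1 (187 to 280 RPKM) and PHO1 (61.3 to 106 RPKM) held most of the sum, and the markers did not all move alike. The 8 shoot photosynthesis markers summed to 165 to 229 RPKM in WT with vehicle and 138 to 178 in bpc, and with BA to 156 to 207 and 149 to 168. The part of these differences in the members' values was not tested. In bulk tissue, fewer cells of a type and less RNA per cell cannot be told apart.

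The 116 members lay on all 5 chromosomes (31, 22, 23, 21 and 19 on chromosomes 1 to 5), and 110 code for proteins. The others are annotated as 3 transcribed pseudogenes, 1 pseudogene, 1 tRNA and 1 microRNA precursor (AT1G67195, MIR414). For 68 members the reference gives no symbol other than the locus name. All 116 passed the filter on low values, which the BA level in the rule ensured. Upstream sequence is shown first because type-B response regulators bind a short core, and the members can be compared with other genes for it without using the values that chose them. The core was searched in 4 forms, the form AGATT, the form AGATC, the form GGATT and the form GGATC, on both strands of the window from 250 bases before to 50 bases after each annotated start (RefSeq, TAIR10.1). Any of the 4 was found in 92.2% of the members' windows and in 89.4% of the windows of 20594 genes tested, with means of 3.14 and 2.55 matches per window. AGATC alone was in 60 of 116 windows (51.7%), against 31.1% of the genes tested, with means of 0.888 and 0.465 matches. It was in 10 of the 21 left-out genes (47.6%). The palindrome AGATCT, examined after these counts were seen, is counted as AGATC on both strands, and it was in 18.1% of the members' windows and 7.08% of the genes tested.

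For the other cores the shares of members and of genes tested lay nearer to each other. AGATT was in 87 of the 116 members' windows and in 69.0% of the genes tested, GGATT in 42.2% and 43.9%, and GGATC in 16.4% and 21.7%. The longer AGATACG was in 5.17% of members' windows and 2.03% of the genes tested. GAGAGAGA, a GA repeat of the kind that BASIC PENTACYSTEINE proteins bind, was in 5.17% and 8.53%. Members' windows had a mean GC content of 30.0%, against 32.1%, and no share was adjusted for that. Of the 10 protein-coding genes among the 12 members with the largest responses, 5 held AGATC in the 250 bases before the start. The share of all genes was not counted for this window. For the 5 genes the 250 bases are printed here in the gene's own direction. AGATC or its reverse complement is in capitals, and the other core forms are unmarked in these windows. The windows are chr2:18051590-18051839 (minus strand) for AT2G43470, chr5:21034376-21034625 (plus) for AT5G51780, chr4:8679504-8679753 (plus) for ABCG30, chr2:15111834-15112083 (plus) for LOG2 and chr5:25976357-25976606 (minus) for AT5G65030.
AT2G43470: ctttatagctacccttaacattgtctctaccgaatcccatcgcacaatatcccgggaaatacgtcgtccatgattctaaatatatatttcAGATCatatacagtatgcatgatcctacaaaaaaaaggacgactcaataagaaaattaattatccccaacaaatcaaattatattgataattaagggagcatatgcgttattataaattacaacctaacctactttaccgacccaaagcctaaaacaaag
AT5G51780: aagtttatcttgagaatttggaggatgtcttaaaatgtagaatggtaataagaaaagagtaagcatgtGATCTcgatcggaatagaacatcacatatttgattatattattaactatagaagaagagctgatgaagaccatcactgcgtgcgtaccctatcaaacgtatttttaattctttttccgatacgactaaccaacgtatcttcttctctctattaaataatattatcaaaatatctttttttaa
ABCG30: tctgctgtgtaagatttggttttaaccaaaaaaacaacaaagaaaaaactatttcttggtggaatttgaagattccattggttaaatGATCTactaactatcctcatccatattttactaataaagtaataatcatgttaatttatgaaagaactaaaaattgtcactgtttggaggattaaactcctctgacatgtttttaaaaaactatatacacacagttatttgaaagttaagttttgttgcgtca
LOG2: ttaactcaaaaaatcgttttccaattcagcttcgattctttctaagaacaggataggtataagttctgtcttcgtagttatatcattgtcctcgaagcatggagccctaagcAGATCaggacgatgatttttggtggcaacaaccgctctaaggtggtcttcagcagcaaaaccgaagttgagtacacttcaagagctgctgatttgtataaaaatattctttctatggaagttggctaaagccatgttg
AT5G65030: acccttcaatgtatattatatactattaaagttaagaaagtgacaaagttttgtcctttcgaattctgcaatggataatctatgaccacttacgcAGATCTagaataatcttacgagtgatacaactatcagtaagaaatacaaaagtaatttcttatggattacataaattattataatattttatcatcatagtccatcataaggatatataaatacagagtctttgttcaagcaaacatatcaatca
In these 5 windows the match began between 138 and 182 bases before the start. In AT5G65030 the capitals cover the palindrome, so both strands match. The other 5 genes, AT5G47980, AT4G25410, CYP82F1, AT3G44326 and AT1G06980, had no AGATC in that window. A match is only a run of letters, and none of these windows was tested for binding.

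The median response, BA minus vehicle on the log2(RPKM + 0.5) scale, was 2.13 in WT (1.53 to 4.42) and 2.14 in bpc (1.50 to 4.51). The median of all 20776 genes tested was -0.05 in WT and 0.00 in bpc. By limma, 3.85% of all genes tested were higher with BA in WT and 4.24% in bpc at an adjusted p under 0.05, and 8.68% and 8.59% differed in either direction. Both responses were at least 2 in 59 members and at least 3 in 10. The members' means with vehicle covered a wide range, from 0 to 132 RPKM in WT, and 19 were under 1 RPKM in both vehicle groups. With BA, 76 members reached 10 RPKM and 37 reached 50 RPKM in both genotypes. Just inside the threshold were AT1G35516, AT4G16008 and AT3G02620, each with a smaller response of 1.50. Just outside were AT1G64890, CYP718 and GSTU1, each at 1.49.

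**Figure D1:**
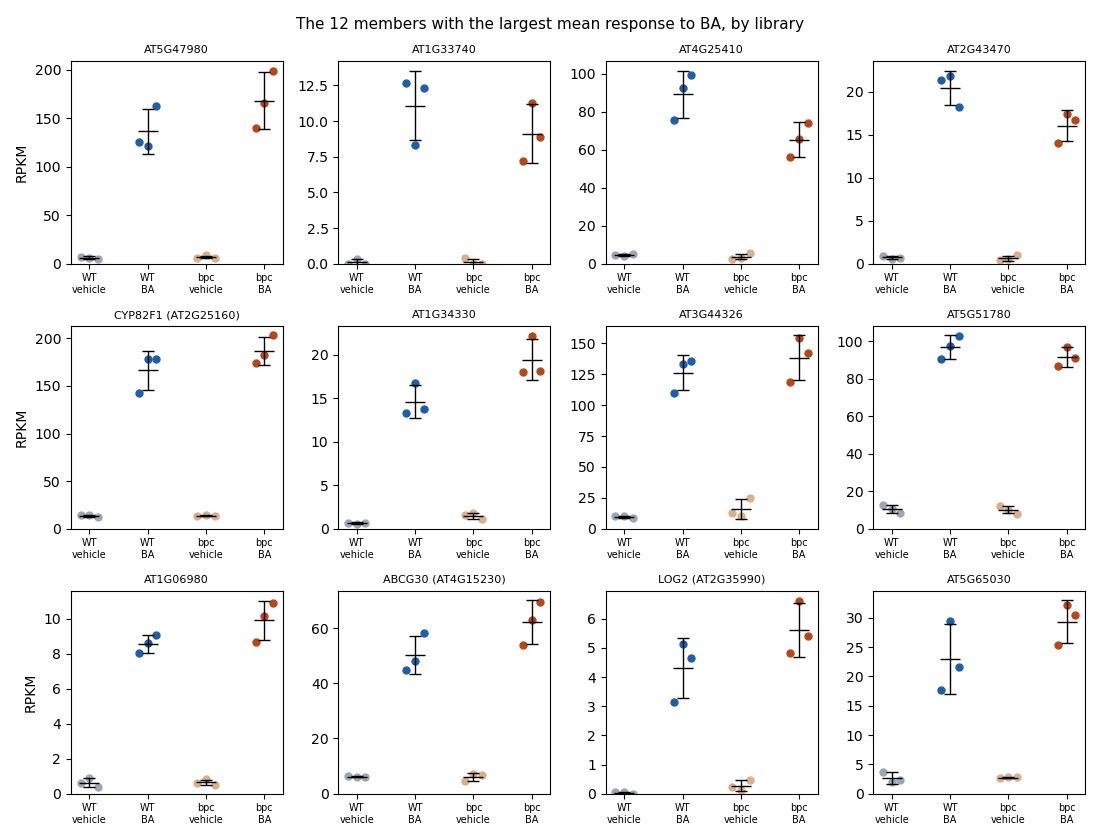
RPKM (linear axis from 0) of the 12 members with the largest mean response, with 1 point per library in each of the 4 groups and the mean with SD over 3 libraries as bars. In every panel the BA libraries lie above the vehicle libraries, as the rule required, and AT5G47980 goes from 4.32 to 8.47 RPKM with vehicle to 121 to 199 with BA.

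The largest mean response was that of AT5G47980 (chr5:19428888-19430517, plus strand), an HXXXD-type acyltransferase gene of the thalianol gene cluster. It stood at 7.22, 6.37 and 4.32 RPKM in the WT vehicle libraries 1 to 3, 126, 121 and 163 with BA, 6.19, 8.47 and 6.09 in bpc with vehicle and 139.6, 166 and 199 with BA. The 6 BA libraries lay far above the 6 vehicle libraries, and WT and bpc overlapped under both treatments. Its responses were 4.42 ± 0.20 (SE) in WT and 4.51 ± 0.20 in bpc. The next gene, AT1G33740, is a transcribed pseudogene that stood at 0, 0.342 and 0 RPKM in the WT vehicle libraries 1 to 3, 12.6, 8.29 and 12.3 with BA, 0.373, 0 and 0 in bpc with vehicle and 7.17, 11.3 and 8.87 with BA. It was at 0 in 4 of the 6 vehicle libraries, so its responses of 4.26 in WT and 3.97 in bpc depend on the pseudocount.

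AT4G25410 (chr4:12985661-12987521, plus strand) encodes a basic helix-loop-helix (bHLH) transcription factor. Its levels were 4.51, 3.97 and 5.11 RPKM in the WT vehicle libraries 1 to 3, 75.4, 92.6 and 99.5 with BA, 2.53, 3.24 and 5.5 in bpc with vehicle and 56.1, 65.7 and 74.3 with BA. With BA the bpc values were all below the WT values, a difference that did not pass the test (-0.45 ± 0.21 (SE; limma, adjusted p = 0.35)), while the vehicle values overlapped. Its responses were 4.15 ± 0.21 (SE) in WT and 4.00 ± 0.21 in bpc. AT2G43470, annotated as a putative zinc finger protein, was under 1 RPKM in all vehicle libraries and reached 21.4, 21.8 and 18.2 RPKM in WT and 14.1, 17.4 and 16.7 in bpc with BA. CYP82F1, a cytochrome P450, stood at 14.1, 14.3 and 11.8 RPKM in the WT vehicle libraries 1 to 3, 143, 179 and 178 with BA, 13.4, 13.9 and 12.9 in bpc with vehicle and 174, 183 and 203 with BA. Its vehicle values fell within a narrow range in both genotypes, and its responses were 3.59 in WT and 3.75 in bpc.

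Of the cytokinin metabolism genes that the rule did not leave out, 4 were members. LOG2 (chr2:15112084-15116776, plus strand) belongs to the LONELY GUY family, whose enzymes release active cytokinin bases from their nucleotides. It stood at 0.0425, 0.0508 and 0 RPKM in the WT vehicle libraries 1 to 3, 3.15, 5.12 and 4.65 with BA, 0.222, 0.111 and 0.482 in bpc with vehicle and 4.82, 6.61 and 5.4 with BA. It was close to 0 with vehicle and measurable in all 6 BA libraries. Its responses were 3.16 ± 0.22 (SE) in WT and 3.00 ± 0.22 in bpc. All its vehicle values lay below the pseudocount of 0.5, so the size of these responses and their closeness depend on it. The authors' deposited log2 fold changes with BA were 6.98 in WT and 4.36 in bpc. Their value for bpc against WT with vehicle was 2.63 (edgeR, FDR = 0.017), on few reads. APT5 and APT3 are adenine phosphoribosyltransferases, a family that can also turn cytokinin bases into nucleotides. APT3 (chr4:11882066-11885533, minus strand) stood at 26.6, 22.9 and 19.2 RPKM in the WT vehicle libraries 1 to 3, 94.8, 111 and 110.1 with BA, 25.6, 22.5 and 16.2 in bpc with vehicle and 107, 122 and 112 with BA. It was thus far more abundant than APT5, which was at 1.52 to 2.23 RPKM with vehicle and 11.3 to 14.3 with BA. The responses were 2.19 and 2.40 for APT3 and 2.49 and 2.44 for APT5 in WT and bpc. UGT85A1 (chr1:7903660-7906969, minus strand), a glucosyltransferase that makes zeatin O-glucoside, stood at 5.44, 6.01 and 7.02 RPKM in the WT vehicle libraries 1 to 3, 23.9, 24.5 and 24.7 with BA, 4.29, 5.47 and 4.18 in bpc with vehicle and 29.6, 24.9 and 29.2 with BA. With vehicle, 2 of the 3 bpc values lay below all WT values, and with BA all 3 bpc values lay above all WT values. The order with BA is that of the deposited values. WT BA library 1 (23.9 RPKM) had a length-weighted RPKM sum of 86.5% of the median library. With that library rescaled to the median, its value would lie above the lowest bpc value, so the full separation would not hold. The highest WT and lowest bpc values with BA were 24.7 and 24.9 RPKM. Neither genotype difference passed the test (limma, adjusted p = 0.18 and 0.55).

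In 5 lists of cytokinin genes from outside the families that the rule left out, calls among the genes that are no members went in both directions. The rule had already taken out the listed genes that rose most in both genotypes, and none that fell. This selection, on the same BA responses, shapes the balance of rises and falls and the medians given here. In WT 10 rose and 11 fell, and in bpc 10 rose and 8 fell (limma, adjusted p under 0.05). With median-of-ratios or TPM scaling 11 rose and 8 fell in WT, and 10 rose and 10 fell in bpc. Of 14 measured perception and relay genes, 4 rose and 5 fell in WT, and 3 rose and 2 fell in bpc (limma, adjusted p under 0.05), while 4.83% of all genes tested fell in WT and 4.36% in bpc. The median over these 14 was 0.14 in WT and -0.14 in bpc. The receptor AHK4 rose in both (1.24 in WT, 1.11 in bpc). The receptors AHK2 (-0.57) and AHK3 (-0.54) fell in WT, and in bpc neither passed (-0.42 and -0.38). The type-B response regulator ARR11 fell in both (-0.88 and -1.05). The phosphotransfer genes AHP1 (0.81 and 0.88) and AHP3 (0.71 and 0.64) rose in both. Of 9 measured cytokinin response factors 3 rose and 0 fell in each genotype, with CRF5 (1.09 and 0.91) and CRF6 (0.77 and 0.86) in both, and the medians were 0.11 and -0.09. Of 12 measured synthesis and activation genes other than LOG2, 5 fell in each genotype and LOG7 rose (0.93 and 0.68), with medians of -0.41 and -0.52. The isopentenyltransferases IPT5 (-2.09 and -2.17) and IPT7 (-1.91 and -1.89), which make cytokinin precursors, and LOG1 (-1.51 and -1.72) and LOG4 (-1.48 and -0.95) fell. Of 5 measured conjugation and transport genes other than UGT85A1, UGT76C2, which makes cytokinin N-glucosides (1.58 and 1.47), and the exporter ABCG14 (0.83 and 1.04) rose, and PUP14, a cytokinin importer gene, fell (-0.60 and -0.72), with medians of -0.05 and -0.09. Of 6 genes listed as known cytokinin targets outside these families, 2 are members, the LOB-domain gene ASL9 (also called LBD3) and the F-box gene AT3G44326 (CFB). Of the other 4, CGA1 rose in bpc (1.57) and 0 passed in WT (limma, 1 at an unadjusted p under 0.05), and the medians over the 4 were 0.15 and 0.07. These lists were written with earlier results of the data known.

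Regulators of transcription made up 13 members. Of these, 5 were bHLH genes, 4 of them in 2 neighbouring pairs, AT4G25400 with AT4G25410 and AT5G51780 with AT5G51790. AT5G51780 (chr5:21034626-21036773, plus strand) stood at 12.6, 10.6 and 8.43 RPKM in the WT vehicle libraries 1 to 3, 90.3, 97.1 and 103 with BA, 12, 10.1 and 8.07 in bpc with vehicle and 86.7, 96.9 and 90.9 with BA. Its values overlapped between genotypes under both treatments. AT5G51790 responded less (1.91 in WT and 2.13 in bpc) than AT5G51780 (3.15 and 3.14). ASL9 (chr1:5651268-5652883, minus strand) stood at 14.6, 10.3 and 7.9 RPKM in the WT vehicle libraries 1 to 3, 52.7, 70 and 63.5 with BA, 10.2, 9.76 and 6.82 in bpc with vehicle and 65.9, 60.2 and 61.3 with BA, with responses of 2.48 in WT and 2.76 in bpc.

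TIE1 and TIE2 encode repressor partners of TCP transcription factors. TIE2 stood at 8.92, 9.66 and 9.42 RPKM in the WT vehicle libraries 1 to 3, 40.1, 57.5 and 42.3 with BA, 6.66, 5.26 and 6.53 in bpc with vehicle and 39.3, 39.4 and 38.8 with BA. TIE1 (chr4:14240666-14242679, plus strand) stood at 6.5, 7.78 and 16.8 RPKM in the WT vehicle libraries 1 to 3, 35.1, 48.6 and 40.8 with BA, 10.1, 8.6 and 37.7 in bpc with vehicle and 57.4, 65.1 and 67.3 with BA. Vehicle library 3 was the highest of its group in both genotypes, and in bpc it was several times the other vehicle libraries. NAI1, a bHLH gene needed for endoplasmic reticulum bodies, was likewise highest in bpc vehicle library 3 (57.6 RPKM, against 39.8 and 29.5), as was the kinase gene MAPKKK17 (35.1 RPKM, against 18.2 and 12.4). Over all members the median log2 deviation from the group mean was -0.06 in bpc vehicle library 3 and -0.07 in WT vehicle library 3. Library 3 was thus not raised over the members in general. BZS1, a B-box zinc finger gene, was at 19.9 to 22.8 RPKM in all vehicle libraries and 59.1 to 76.0 with BA. The MYB gene HOS10 and AT1G35516 overlap on the same strand, AT1G35516 lying inside HOS10. HOS10 was at 4.04 to 13.3 RPKM with vehicle and 21.4 to 33.5 with BA, and AT1G35516 at 20.6 to 41.1 and 80.8 to 98.7, but the reads of the pair cannot be told apart with certainty.

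Genes of other hormones made up 7 members. The largest mean response was that of SAUR69, of an auxin-responsive family, at 3.31, 2.77 and 1.38 RPKM in the WT vehicle libraries 1 to 3, 14.2, 16.5 and 22.3 with BA, 2.6, 2.59 and 2 in bpc with vehicle and 15.8, 16.4 and 24.1 with BA. ACS5 makes the ethylene precursor ACC, and its responses were 2.14 in WT and 2.27 in bpc. NCED3, which carries out the committed step of abscisic acid synthesis, was low, at 0.496 to 1.1 RPKM with vehicle and 2.86 to 5.50 with BA. AFP2, whose product binds the abscisic acid regulator ABI5, had responses of 2.01 in WT and 2.08 in bpc. GA20OX1, a gibberellin synthesis enzyme, was at 0.477 to 0.804 RPKM with vehicle and 2.90 to 5.06 with BA. PILS5 (chr2:7606728-7609278, plus strand), a PIN-LIKES auxin carrier gene, was the most abundant of the 7. It stood at 102, 86 and 76.6 RPKM in the WT vehicle libraries 1 to 3, 262, 284 and 354 with BA, 98.5, 96 and 112 in bpc with vehicle and 311, 381 and 389 with BA, and its responses were 1.76 in WT and 1.81 in bpc.

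**Figure D2:**
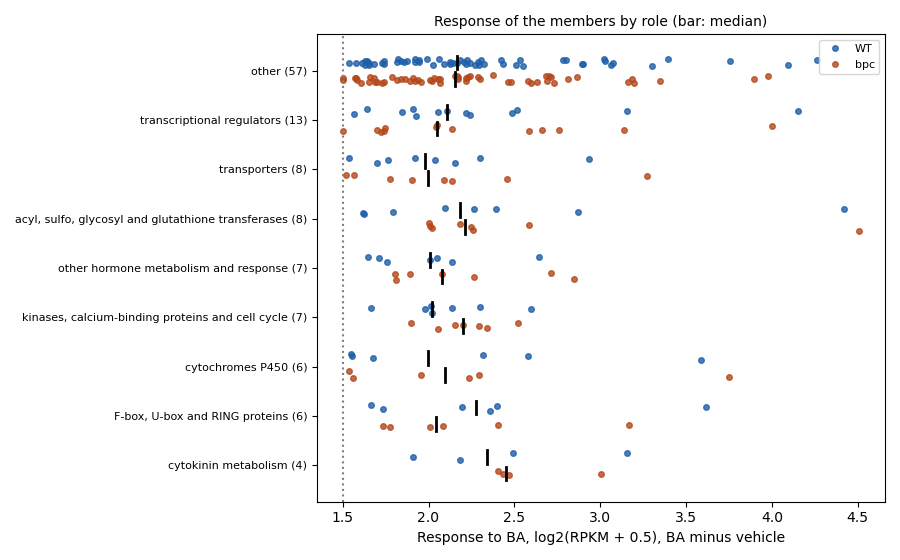
Response to BA (BA minus vehicle, log2(RPKM + 0.5)) of each member by role, with WT and bpc as separate points, the number of members in brackets, the median as a bar and the threshold of 1.5 as a dotted line. The medians of the roles lie between 1.98 and 2.45 in both genotypes.

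The roles covered 59 members, and the other 57 had none of them. The 8 transferase genes held the most abundant members. GSTU26 (chr1:5875295-5876620, plus strand), a glutathione S-transferase, stood at 148, 143 and 103 RPKM in the WT vehicle libraries 1 to 3, 379, 356 and 483 with BA, 114, 125 and 101 in bpc with vehicle and 410.4, 448 and 511 with BA. Its responses of 1.63 in WT and 2.00 in bpc were below the medians over all members. The sulfotransferase ST4B (chr1:4604688-4606067, plus strand) stood at 41.1, 47.3 and 67 RPKM in the WT vehicle libraries 1 to 3, 317, 416 and 396 with BA, 63.7, 71.8 and 83.2 in bpc with vehicle and 382, 439 and 500.3 with BA, and its responses were 2.87 in WT and 2.59 in bpc. UGT84A3, which makes glucose esters of hydroxycinnamic acids, had responses of 1.79 in WT and 2.02 in bpc, and AT3G50300, an HXXXD-type acyltransferase gene, stood at 17.5 to 22.8 RPKM in WT with vehicle and 77.1 to 102 with BA.

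Cytochromes P450 made up 6 members. CYP705A5 (chr5:19434758-19436749, plus strand), an enzyme of thalianol modification, stood at 77.9, 90.2 and 88.8 RPKM in the WT vehicle libraries 1 to 3, 225, 227 and 312 with BA, 71.3, 84 and 107 in bpc with vehicle and 238, 246 and 285 with BA. It was already abundant with vehicle, and its responses were 1.55 in WT and 1.56 in bpc. CYP84A4 had responses of 2.32 in WT and 2.29 in bpc and CYP81F3, an enzyme of indole glucosinolate modification, of 1.55 in WT and 1.53 in bpc. CYP78A6 was under 0.5 RPKM in all vehicle libraries and at 1.42 to 3.91 RPKM with BA.

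Among 8 transporter genes ABCG30, an ABC transporter gene, had the largest mean response. It stood at 6.29, 6.06 and 5.94 RPKM in the WT vehicle libraries 1 to 3, 44.8, 48.2 and 58.1 with BA, 4.47, 6.95 and 6.72 in bpc with vehicle and 53.8, 63 and 69.5 with BA. AT3G45700 and AT3G45680, neighbouring genes of the major facilitator superfamily, had responses of 2.04 in WT and 2.46 in bpc and of 2.30 in WT and 1.90 in bpc. The amino acid transporter gene AAT1 and the sulfate transporter family gene SULTR3;4 had responses of 2.15 and 2.09 and of 1.92 and 2.14 in WT and bpc. Of 7 genes for kinases, calcium-binding proteins and the cell cycle, the P-type cyclin CYCP4;3 had the largest mean response, at 0.386 to 1.33 RPKM with vehicle and 5.83 to 8.93 with BA. ANNAT4, an annexin, stood at 50.4, 48 and 49.4 RPKM in the WT vehicle libraries 1 to 3, 178, 198 and 229.8 with BA, 45.2, 53.8 and 56.9 in bpc with vehicle and 224, 276 and 296 with BA. Of 6 F-box, U-box and RING genes, AT3G44326 (chr3:16000879-16002163, minus strand) stood at 10.3, 10.2 and 8.9 RPKM in the WT vehicle libraries 1 to 3, 110.2, 133 and 136 with BA, 12.5, 10.4 and 25 in bpc with vehicle and 119, 154 and 142 with BA, with bpc vehicle library 3 the highest vehicle value.

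Several strong responders had no assigned role. AT1G06980 was under 1 RPKM in all vehicle libraries and at 8.03 to 10.9 RPKM with BA. AT5G65030 stood at 3.77, 1.97 and 2.29 RPKM in the WT vehicle libraries 1 to 3, 17.8, 29.5 and 21.6 with BA, 2.62, 2.76 and 2.84 in bpc with vehicle and 25.3, 32.3 and 30.5 with BA. AT4G11190 (chr4:6826587-6827389, plus strand), a dirigent-like protein gene, was the most abundant of these. It stood at 79.8, 97.8 and 64.5 RPKM in the WT vehicle libraries 1 to 3, 331, 322 and 414 with BA, 107, 127 and 75.7 in bpc with vehicle and 369, 392 and 421 with BA. The transcribed pseudogene AT3G29252 was listed at 0 in all 6 vehicle libraries and stood at 5.84, 4.01 and 4.59 RPKM in WT and 2.4, 3.29 and 2.55 in bpc with BA, so no fold is given.

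Members lay near each other in 11 groups that held 24 of the 116 (gaps of up to 12000 bases). The same count was not made for other genes, so it does not show whether members lie closer together than genes in general. Beside the acyltransferase gene AT5G47980 lay CYP705A5, 4240 bases away, and AT5G47950, 10230 bases away on the other side. The bHLH genes AT4G25400 and AT4G25410 were followed by GA20OX1, with gaps of 3076 and 3329 bases. ANNAT4 and ANNAT3 lay 2111 bases apart on opposite strands, AT2G25150 and CYP82F1 4167 bases apart on the same strand, and LOG2 544 bases downstream of YLS9. The tRNA gene AT2G17810 lay 84 bases past the 3′ end of HK1 on the opposite strand and had 0 to 1.94 RPKM with vehicle. NdhO lay 369 bases downstream of the left-out type-A response regulator ARR15 on the same strand. Reads that run past a gene's end could be shared in these last cases, and this was not tested.

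The rule used the responses of both genotypes, so the difference between them is given as a description with no test. The responses of WT and bpc lay within 0.5 of each other in 106 of 116 members (91.4%), against 95.2% of all genes tested, and over 1 apart in 2, and each genotype had the larger response in 58. The median absolute difference was 0.199 on the log2(RPKM + 0.5) scale, against a median SE of 0.277 for that difference. Over the 116 members Pearson's r of the responses was 0.855 and Spearman's rho 0.741, as a description of genes that share the same 12 libraries. The rule asked for at least 1.5 in both genotypes, which limits how far the responses of members can differ downwards. The pseudocount of 0.5 also makes differences between the responses of low genes smaller.

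**Figure D3:**
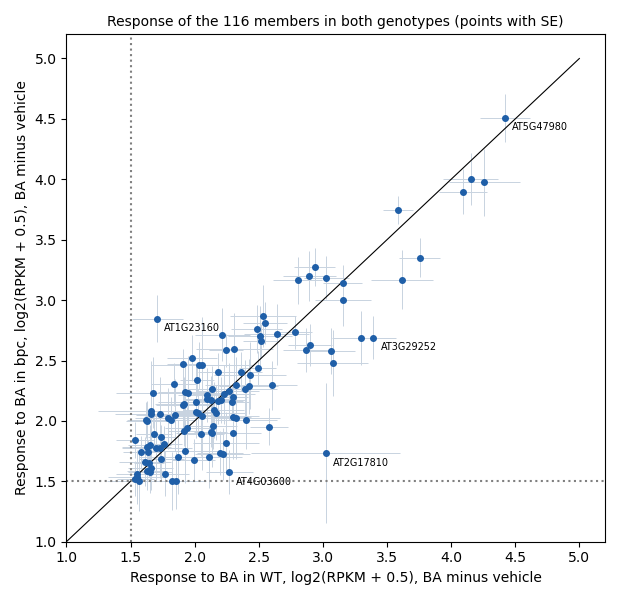
Response to BA (BA minus vehicle, log2(RPKM + 0.5)) in WT on the horizontal axis and in bpc on the vertical axis, with 1 point per member and SE bars. The solid line marks equal responses and the dotted lines the rule's threshold of 1.5, and 106 of 116 points lie within 0.5 of the solid line.

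The 3 members whose responses differed most relative to the fitted spread were AT1G23160, UGT85A1 and CYP87A2. AT1G23160, of the GH3 family whose members conjugate hormones and related acids to amino acids, stood at 0.619, 0.642 and 0.515 RPKM in the WT vehicle libraries 1 to 3, 3.61, 2.62 and 3.05 with BA, 0.27, 0.538 and 0.117 in bpc with vehicle and 5.57, 4.63 and 5.37 with BA. Every bpc BA value was above every WT BA value. The response was 1.71 in WT and 2.85 in bpc, a difference of 1.14 ± 0.28 (SE), bpc minus WT. UGT85A1, whose BA values were higher in all bpc libraries with WT BA library 1 as deposited, had a difference of 0.56 ± 0.18. CYP87A2, a cytochrome P450, stood at 8.35, 8.51 and 10.1 RPKM in the WT vehicle libraries 1 to 3, 44.5, 65.3 and 60 with BA, 9.29, 10.1 and 12.3 in bpc with vehicle and 38.6, 43.5 and 44.4 with BA, and its difference was -0.62 ± 0.21. On the log2(RPKM + 0.5) scale the members over 1 apart were AT1G23160 and the low tRNA gene AT2G17810. In the authors' deposited log2 fold changes, WT and bpc were also over 1 apart for LOG2 (6.98 and 4.36) and AT1G34520 (3.12 and 4.73).

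The rule did not use the difference in level between the genotypes, which was therefore tested. With vehicle, 3 members were higher and 3 lower in bpc (limma, adjusted p under 0.05), against 0.91% and 1.08% of all genes tested (1.99% in either direction). With BA, 2 were higher and 2 lower, against 1.29% and 1.03% (2.32% in either direction). At an unadjusted p under 0.05, 25 were higher and 13 lower with vehicle and 13 higher and 9 lower with BA, while 13.4% and 15.2% of all genes tested passed in either direction. The median difference, bpc minus WT, was 0.06 with vehicle and 0.17 with BA over the members, and 0.04 and 0.08 over all genes tested. With the WT BA library that stood apart rescaled, the counts were 8 with vehicle and 6 with BA, and without it 6 and 2. The count with vehicle was 1 without WT vehicle library 1 or bpc vehicle library 1. The count with BA was 2 without WT BA library 3, 1 without bpc BA library 2 or 3, and 0 without bpc BA library 1 (limma, 19 at an unadjusted p under 0.05). Deviations of the same-numbered vehicle libraries of WT and bpc correlated at 0.312, 0.372 and 0.630. Libraries with different numbers were not compared, so a pairing by number is not settled. In a limma fit of the vehicle groups alone 0 members passed (22 at an unadjusted p under 0.05), and with the replicate number as a block in that fit 10 passed, of which 5 were among the 6, AT1G34330 being the exception. In the authors' deposited table for the same comparison with vehicle, 19 of the 115 members listed were higher and 9 lower at an FDR under 0.05, against 6.38% and 6.75% of its 19706 genes.

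**Figure D4:**
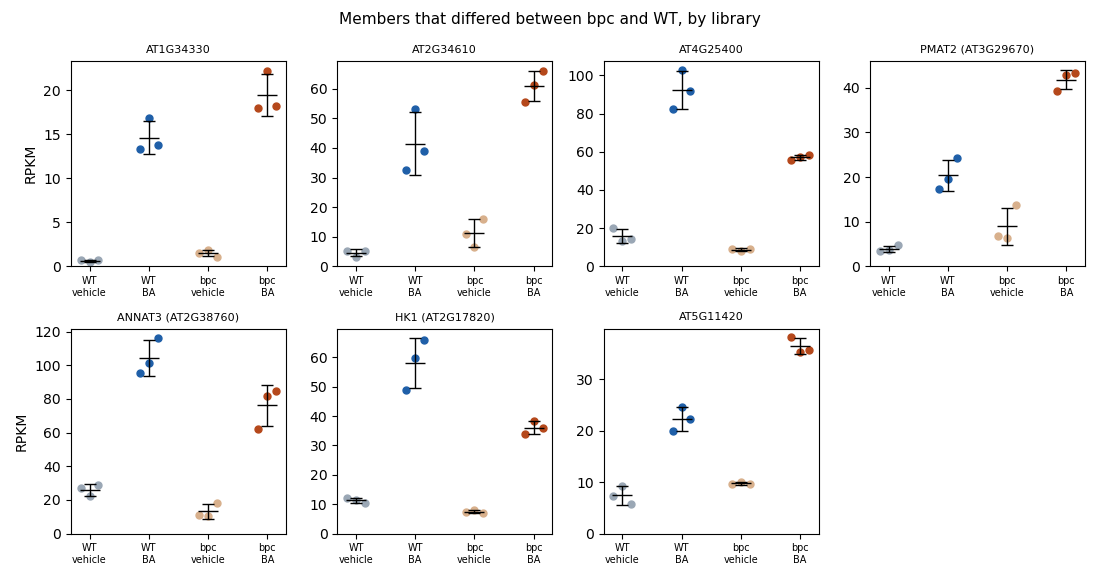
RPKM (linear axis from 0) of the 7 members that differed between bpc and WT with vehicle or with BA, with 1 point per library and the mean with SD over 3 libraries as bars. AT4G25400 and HK1 are lower in bpc under both treatments, PMAT2 is higher under both, and in all 7 the BA libraries lie above the vehicle libraries of the same genotype.

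AT4G25400 (chr4:12981016-12982584, plus strand), a bHLH gene and the neighbour of AT4G25410, was lower in bpc under both treatments. It stood at 20.1, 13.2 and 14.5 RPKM in the WT vehicle libraries 1 to 3, 82.7, 103 and 91.6 with BA, 9.14, 7.78 and 8.96 in bpc with vehicle and 55.7, 57.2 and 58.2 with BA, and the genotypes did not overlap under either treatment. The difference was -0.83 ± 0.14 (SE; limma, adjusted p = 0.01) with vehicle and -0.68 ± 0.14 (SE; limma, adjusted p = 0.026) with BA, and the responses, 2.52 in WT and 2.66 in bpc, were near each other. With BA the call was lost without WT BA library 2 or 3 (-0.61 and -0.69) or without any of the bpc BA libraries (-0.67 to -0.70). HK1 (chr2:7742870-7748502, minus strand), a histidine kinase related to the cytokinin receptors and linked to osmosensing, was also lower in bpc. It stood at 12, 11.6 and 10.5 RPKM in the WT vehicle libraries 1 to 3, 49, 59.8 and 65.8 with BA, 7.37, 8.01 and 7 in bpc with vehicle and 33.8, 38.2 and 36 with BA, again with no overlap. The difference was -0.58 ± 0.12 (SE; limma, adjusted p = 0.025) with vehicle and -0.67 ± 0.12 (SE; limma, adjusted p = 0.01) with BA. With vehicle the call was lost without WT vehicle library 1 or 2 (-0.54 and -0.56) or without any of the bpc vehicle libraries (-0.53 to -0.62), and with BA it was lost without bpc BA library 1 (-0.63).

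ANNAT3 (chr2:16200944-16202669, plus strand), an annexin gene, was lower in bpc with vehicle. It stood at 27.1, 22.1 and 29.2 RPKM in the WT vehicle libraries 1 to 3, 95.2, 101 and 116 with BA, 11, 10.4 and 18.1 in bpc with vehicle and 62.3, 81.7 and 84.9 with BA. The difference was -1.0 ± 0.19 (SE; limma, adjusted p = 0.02) with vehicle, and with BA it was -0.46 ± 0.19 (limma, adjusted p = 0.28). The call with vehicle was lost without WT vehicle library 1 (-0.97) or bpc vehicle library 1 or 2 (-0.89 and -0.86). Its neighbour ANNAT4 showed overlapping vehicle values. PMAT2 (chr3:11527756-11529420, plus strand), a malonyltransferase of phenolic glucosides, was higher in bpc under both treatments. It stood at 3.34, 3.54 and 4.64 RPKM in the WT vehicle libraries 1 to 3, 17.3, 19.6 and 24.2 with BA, 6.84, 6.26 and 13.8 in bpc with vehicle and 39.4, 42.8 and 43.2 with BA. The difference was 1.05 ± 0.24 (SE; limma, adjusted p = 0.039) with vehicle and 1.03 ± 0.24 (SE; limma, adjusted p = 0.04) with BA, and the responses were 2.26 in WT and 2.25 in bpc. Leaving out WT vehicle library 1 or 2, or bpc vehicle library 1, ended the call with vehicle (0.97, 1.00 and 1.19), as did leaving out any single BA library (1.05 each), quantile scaling (0.98), or a fit with no filter on low values or no intensity trend (1.05 each). Leaving out WT vehicle library 1 or 2 (1.03 each), any of the WT BA libraries (0.92 to 1.16) or any of the bpc BA libraries (1.01 to 1.07) ended the call with BA, as did median-of-ratios, quantile or TPM scaling (0.94, 0.96 and 0.97) and a fit with no such filter or no trend (1.03 each).

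AT1G34330, a transcribed pseudogene, and AT2G34610, annotated as a cotton fiber protein gene, were higher in bpc with vehicle. AT1G34330 stood at 0.691, 0.496 and 0.67 RPKM in the WT vehicle libraries 1 to 3, 13.3, 16.8 and 13.8 with BA, 1.53, 1.8 and 1.08 in bpc with vehicle and 18, 22.2 and 18.2 with BA. Its difference with vehicle was 0.80 ± 0.16 (SE; limma, adjusted p = 0.024), and it was lost without WT vehicle library 1 or 2 (0.85 and 0.72) or bpc vehicle library 1 or 2 (0.77 and 0.68). AT2G34610 stood at 5.28, 3.12 and 5.03 RPKM in the WT vehicle libraries 1 to 3, 32.4, 53.2 and 38.9 with BA, 10.9, 6.56 and 15.9 in bpc with vehicle and 55.6, 61.4 and 65.9 with BA, with bpc vehicle library 3 the highest of its group. Its difference was 1.17 ± 0.27 (SE; limma, adjusted p = 0.049), and leaving out any single library except WT BA 2 or bpc vehicle 2 ended the call (0.88 to 1.29), as did a pseudocount of 1 (1.09), quantile scaling, a fit with no filter on low values or no intensity trend (1.17 each), and leaving out both vehicle libraries numbered 3 (0.97). AT5G11420, a DUF642 family gene, was higher in bpc with BA. It stood at 7.34, 9.36 and 5.72 RPKM in the WT vehicle libraries 1 to 3, 19.9, 24.6 and 22.3 with BA, 9.6, 10.1 and 9.69 in bpc with vehicle and 38.2, 35.4 and 35.6 with BA, with no overlap between genotypes under either treatment. The difference was 0.70 ± 0.15 (SE; limma, adjusted p = 0.026) with BA and 0.39 ± 0.15 with vehicle (limma, adjusted p = 0.23). The call was lost without WT BA library 1 or 3 (0.62 and 0.70) or any of the bpc BA libraries (0.67 to 0.72).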

How the data were processed

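The authors deposited RPKM values for 33602 genes in 12 libraries and 3 comparison tables of 19706 genes. Per the file headers, each table gives a log2 fold change, a mean log2 CPM, a score (the likelihood ratio), a p-value and an FDR, which the authors obtained with edgeR. Per the submitters' processing notes, the authors used edgeR 3.0, featureCounts, TopHat2 2.0.11 with Bowtie 1.1.0, SAMtools 0.1.18 and FastQC on the build TAIR10. Per the labels' protocols the kit was stranded, and the strand setting of the counting was not given in the sources used. No per-sample column was left unused (0 columns). Gene models, symbols and sequence came from RefSeq TAIR10.1, which matched 32835 of the 33602 genes.

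The present fits used limma 3.58.1 in R 4.3.3 on log2(RPKM + 0.5), for the 20776 genes that reached 0.5 RPKM in 3 or more of the 12 libraries, with 4 group means, an intensity trend, 8 residual degrees of freedom and Benjamini-Hochberg adjustment over all of them (threshold 0.05). The pseudocount makes differences of low genes smaller than they are. The script was tested on simulated data. Read depth came from the steps of the RPKM values, and it sets counting error only. Members, roles and gene lists were chosen with earlier results of these data known. Values by library are given for the 12 members with the largest mean response, the 5 with the highest BA level, those past the threshold between genotypes (up to 8 a contrast), the 3 with the smallest p for a difference in response, the 3 on each side of the rule's threshold, and examples from each role. Pathway genes named are up to 4 a list by smallest p, with the receptors AHK2 and AHK3 added beside AHK4.

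Replicate numbers come from the sample titles. Deviations from the group means of same-numbered WT and bpc vehicle libraries correlated at 0.312, 0.372 and 0.630. Libraries with different numbers were not compared, so these values do not settle whether the numbers pair the vehicle samples, and no label says so. Those of the same-numbered BA libraries correlated at 0.059, -0.052 and 0.035. Between vehicle and BA libraries of the same number the correlations were 0.159, -0.275 and -0.248 in WT and 0.083, 0.100 and 0.109 in bpc.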

Additional observations from a re-analysis of the deposited data

How the results depend on the processing

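The count of 6 members that differed in bpc with vehicle ranged from 1 to 7 when single libraries were left out, and was 0 in a fit of the vehicle groups alone, 10 in that fit with a replicate block and 7 with the replicate block over all 12 libraries. The count of 4 with BA ranged from 0 to 5 with single libraries left out, and was 17 in a fit of the BA groups alone, 25 in that fit with the block, 7 with the replicate block over all libraries and 13 without both vehicle libraries numbered 3; these 13 and the fits that join groups and block were chosen after seeing the data. Calls among the pathway genes that are no members, 21 in WT and 18 in bpc, ranged from 14 to 22 and from 13 to 19 with single libraries left out, and 13 passed in WT in a fit of the WT groups alone with the replicate block, which was added after seeing the data. The rule found 187 genes with its threshold lowered by 0.25 and 59 with a threshold of 2, and 111 to 123 with single libraries left out. The median response was 1.96 with a pseudocount of 1, and 2.09 to 2.20 with single libraries left out. With 150 bases before the start, any core was in 71.6% of members' windows (66.4% of genes tested). AGATT was in 50.9% (43.2%), AGATC in 28.4% (15.7%), GGATT in 24.1% (24.3%) and GGATC in 8.62% (11.3%). AGATACG was in 3.45% (0.971%), GAGAGAGA in 1.72% (2.92%) and AGATCT in 9.48% (3.38%). Of 250 alternatives for single genes named for a genotype difference, 180 kept the direction and side of the threshold, 70 kept the direction only, and 0 turned it. Few reads stand behind values under 1 RPKM, and the causes of these changes were not tested.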
